A study of Mus musculus with 50 samples.

Results

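The mouse carboxylesterase family was followed across 10 groups of RNA libraries and 4 groups of ATAC-seq libraries through 10 of its genes, Ces1b, Ces1c, Ces1d, Ces1e, Ces1f, Ces1g, Ces2a, Ces2c, Ces2e and Ces3a. These genes were chosen by name, with earlier results of these data known. All 10 were found among the 24984 gene names of the count files, of which 19 begin with Ces and a digit. The study asked how ageing alters transcription and chromatin accessibility in kidney and liver. RNA-seq was available for kidney and liver of untreated C57BL/6 mice, young (2.5 months) or old (23 to 25 months), with 4 libraries per tissue and age, and ATAC-seq, which maps open chromatin, for the same tissues and ages with 3 libraries each. A second set of RNA libraries came from kidney and liver of C57BL/6 mice of 20 to 21 months that received DMSO, the solvent control, or an agent labelled 3C, with 4 libraries per tissue and treatment. A further set came from skin fibroblasts labelled P9 and treated with DMSO or 3C, with 3 libraries each. The agent 3C and the label P9 are not explained in the sources used here. The untreated mice were female, and the sex of the DMSO and 3C mice is not given there. The tissues were sampled whole, so each value averages over all cell types of the organ, and fewer cells of a type and less RNA per cell cannot be told apart.

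Carboxylesterases are serine hydrolases that cleave ester, amide and thioester bonds in drugs, pesticides and lipids. Most family members are retained in the endoplasmic reticulum of hepatocytes, of cells of the intestinal epithelium and of renal tubule cells, where they act both in detoxification and in the release of fatty acids from stored triacylglycerol. Nuclear receptors for xenobiotics and for fatty acids are known regulators of several members in liver. The genes lie in tandem arrays on chromosome 8. In the GRCm38.p6 annotation of the mm10 genome, the 6 Ces1 members lay on the minus strand between positions 93056725 and 93337209, and the 4 Ces2 and Ces3 members on the plus strand between 104734003 and 105058414.

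The genes arose by duplication, and some reads cannot be told apart between copies. The transcripts of Ces1b and Ces1c were the most alike, with 91.4% identity over their aligned bases, followed by Ces2a and Ces2c with 81.9%. The RNA reads were 150 bases long. Of all stretches of 150 bases in a transcript, 4.03% of those of Ces2a, 3.35% of those of Ces2c and 2.37% of those of Ces3a occurred exactly in another gene, mainly the gene model Gm7208 for Ces2a, the pseudogene Ces2d-ps for Ces2c and the neighbour Ces3b for Ces3a. The share was 0% for the other 7 members. For stretches of 100 bases it was 10.8%, 15.98% and 9.09%, with 1.29% for Ces1b and 1.39% for Ces1c. Values of Ces2a, Ces2c and Ces3a are therefore the least certain, since reads from such stretches can be discarded or assigned to a copy.

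The RNA libraries held between 14.2 M and 43.7 M reads assigned to genes. Levels are given as reads per M assigned reads (CPM) after trimmed mean of M-values (TMM) scaling over all 38 libraries, and levels of different genes are compared per kilobase of exon (CPM per kb). The libraries of the untreated mice and those of the DMSO and 3C mice differed in how unaligned reads were tallied in the files, and so these sets were not tested against each other. Old kidney replicate 2 stood apart from the other kidneys. It held liver transcripts, with albumin (Alb) at 2109.7 CPM against 11.3 to 38.9 CPM in the other 3 old kidneys. Over 17 hepatocyte markers its median level was 0.957% of that in old liver, against 0.006% to 0.040% in the other 15 kidney libraries. Fitted results of the members in old kidney are therefore given with and without this library.

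To compare the members between organs, their levels were first set side by side in young kidney and young liver. Liver held far more carboxylesterase transcript than kidney. The 10 members summed to 15336 ± 2256 CPM (SD, n = 4) in young liver and to 658 ± 110 CPM (SD, n = 4) in young kidney. By library totals alone, without TMM scaling, these sums were 8739 and 789 CPM. Of the 10 members, 9 were lower in young kidney than in young liver, where 16.8% of 14057 genes tested were called lower in kidney, and 1 was higher, where 25.7% of all genes tested were called higher. A gene was called here and below when its adjusted p in edgeR's quasi-likelihood test was under 0.05 and its fold change above 2 in either direction.

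**Figure D1:**
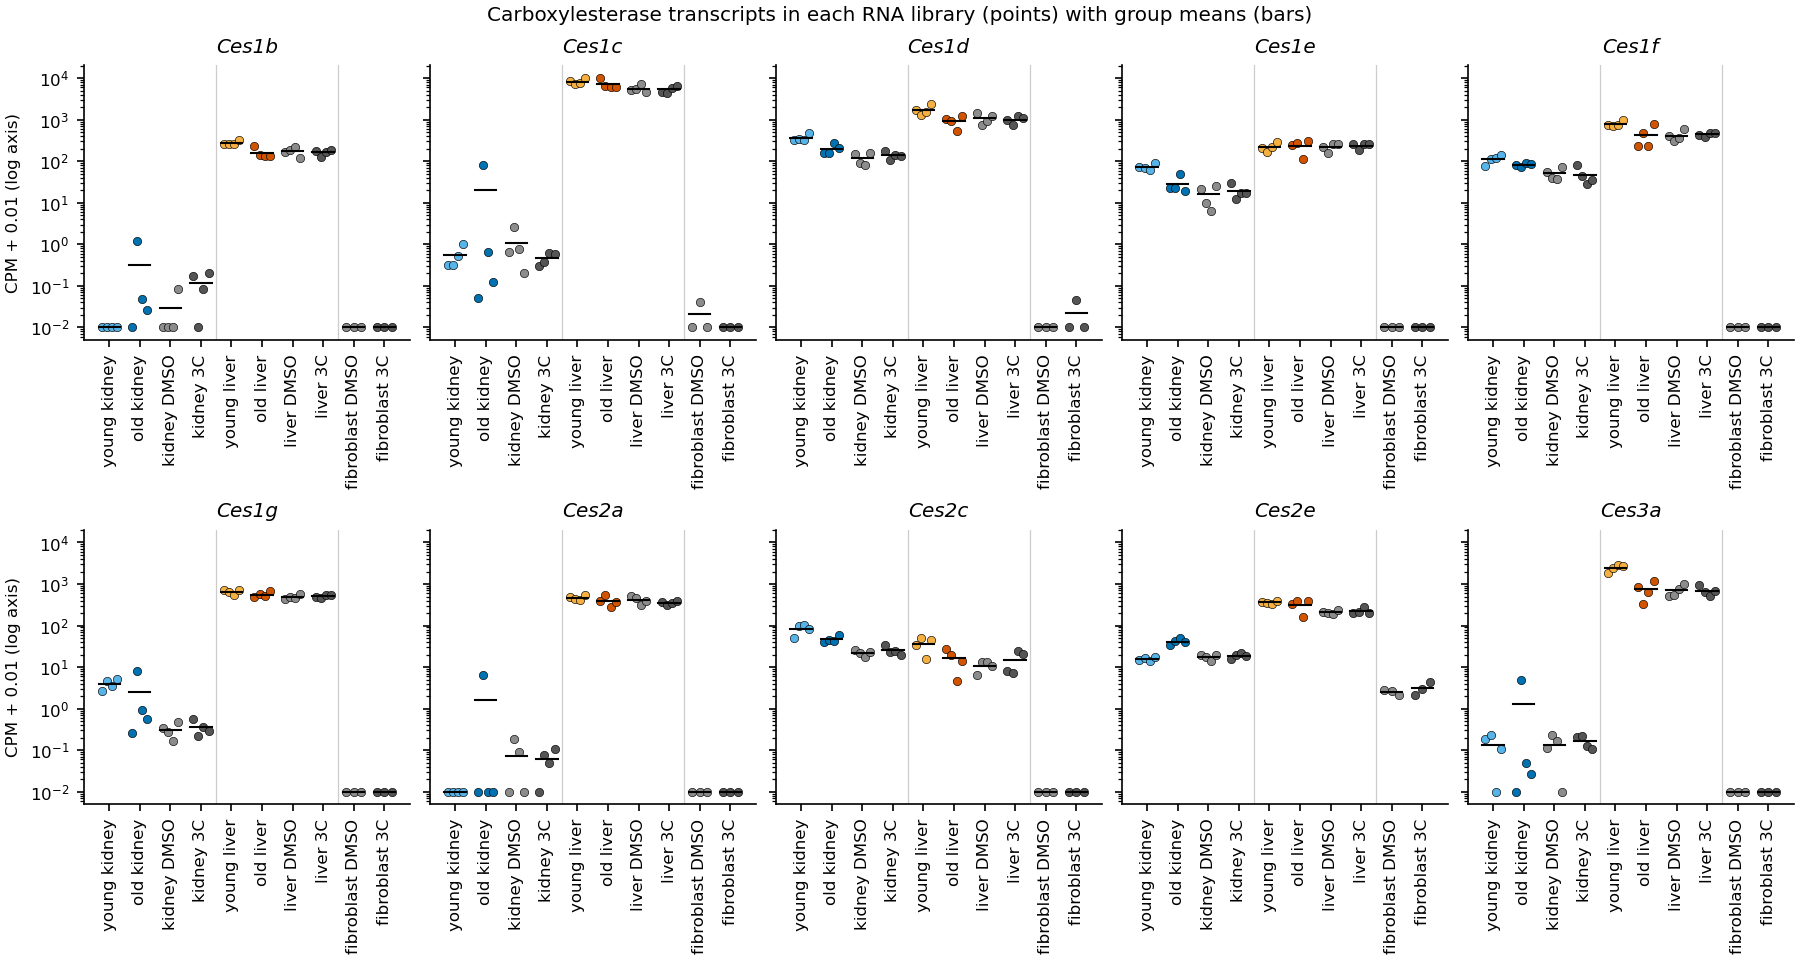
Level of each member in every RNA library (points) with the mean of each group (bars), on a logarithmic axis in CPM with 0.01 added. In the 16 liver libraries Ces1c lay highest, between 4385 and 10274 CPM, while in fibroblasts the level of Ces2e, at 2.11 to 4.31 CPM, was the highest of the 10 members.

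Ces1c, which encodes the carboxylesterase that is secreted into mouse plasma, was the dominant member in liver and all but missing from kidney. Its 4 young livers held 8383, 7144, 7640 and 10153 CPM, against 0.310, 0.300, 0.527 and 1.01 CPM in the 4 young kidneys, a ratio of means of 15494. Ces3a, a microsomal lipid hydrolase of liver, held 1888, 2369, 2823 and 2727 CPM in young liver and 0 to 0.225 CPM in young kidney. The liver level of Ces3a was 19661 times the kidney level, but the kidney value rests on 12 reads in all 4 libraries. By library totals alone the ratio was 7434 for Ces1c and 9250 for Ces3a. Both genes were thus separated between the organs without overlap, as were 27.1% of all genes tested with the lower values in kidney.

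Ces2a and Ces1b had no read in any young kidney library. Ces2a, a hydrolase of acylglycerols, held 413 to 555 CPM in young liver. By library totals alone its mean there was 269 CPM, against a floor of 0.0415 CPM in young kidney. This floor is the level that 3 reads over the 4 kidney libraries would give. Ces1b held 254 to 332 CPM in young liver, with a mean of 158 CPM by library totals alone against the same floor. Ces1g, a lipid hydrolase of hepatocytes that takes part in lipid secretion, was present in young kidney at a low level, 2.66, 4.50, 3.57 and 5.26 CPM, against 541 to 706 CPM in young liver. The liver level of Ces1g was 161 times that of kidney, or 77.2 times by library totals alone.

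The remaining members were present in both organs. Ces2e, a hydrolase of pyrethroid esters, held 322 to 397 CPM in young liver and 14.1 to 17.7 CPM in young kidney, a ratio of 22.8. Ces1f and Ces1d, both hydrolases of stored triacylglycerol, held 7.18 and 4.71 times more in liver. Ces1d held 1312 to 2415 CPM in young liver and 323 to 475 CPM in young kidney. Ces1e, known as egasyn for its binding of beta-glucuronidase in the endoplasmic reticulum, held 169 to 289 CPM in young liver and 60.6 to 89.4 CPM in young kidney, a ratio of 3.09. By library totals alone the ratio was 10.9 for Ces2e, 3.42 for Ces1f, 2.23 for Ces1d and 1.46 for Ces1e, each below the ratio with TMM scaling, and no member changed direction.

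Ces2c, an acylglycerol and drug hydrolase, was the exception. It held 50.3, 98.1, 102.7 and 82.7 CPM in the young kidneys and 33.3, 50.02, 15.99 and 43.8 CPM in the young livers. The ranges all but met at kidney replicate 1 and liver replicate 2, and they overlapped under the scaling of this comparison alone. The fitted log2 difference was 1.20 in favour of kidney (SE 0.315, edgeR adjusted p = 0.00533). Without young liver replicate 3, the library with the lowest value, the difference was 0.95 (adjusted p = 0.00661) and no longer above 2-fold.

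The order of the members per length differed between the organs. In young kidney Ces1d led with 189 CPM per kb, followed by Ces1f with 58.1, Ces2c with 42.4 and Ces1e with 34.8 CPM per kb. The ranges of Ces1f and Ces2c and of Ces2c and Ces1e overlapped between libraries, while Ces1d lay above all others in every library. In young liver Ces1c led with 4527 CPM per kb, followed by Ces3a with 1196 and Ces1d with 888 CPM per kb, and the ranges of Ces3a and Ces1d overlapped. Ces2c was last in liver with 18.2 CPM per kb.

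**Figure D2:**
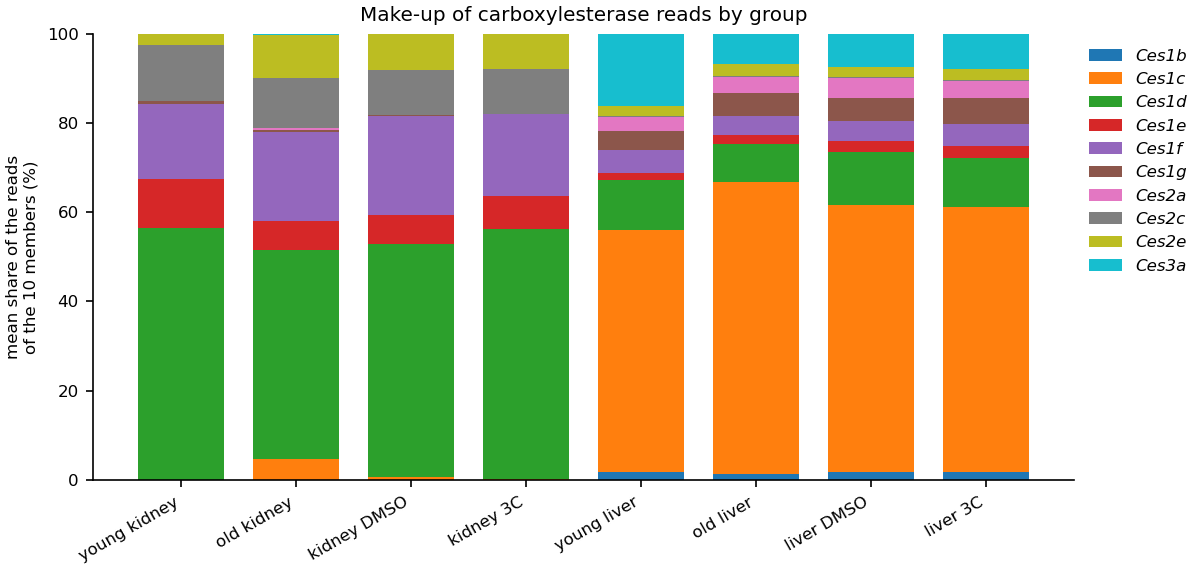
Mean share of each member in the summed CPM of the 10 members, by group of kidney or liver libraries, in percent (bars from 0 to 100). Ces1d made up 46.8% to 56.3% in the kidney groups and Ces1c 54.3% to 65.4% in the liver groups, and the 4.58% of Ces1c in old kidney came from replicate 2.

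Ces1d held the largest share in each kidney group and Ces1c in each liver group. Ces1d made up 56.3% of the summed CPM in young kidney, 46.8% in old kidney and 52.4% in kidney of DMSO mice. Ces2e made up 2.42% in young kidney and 9.73% in old kidney, and 8.09% and 7.76% in the DMSO and 3C kidneys. In the same order its mean level was 15.8, 41.3, 17.9 and 18.6 CPM, and the members summed to 658, 426, 230 and 252 CPM. In liver, Ces3a made up 16.1% of the sum in young mice, 6.72% in old mice and 7.43% and 7.87% in DMSO and 3C mice. Shares are within-library values and need no scaling between libraries, but the share of a member also changes with the levels of the others.

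To see whether the chromatin at the start sites followed the same division, the sequences upstream of the start sites and the deposited ATAC-seq peaks were examined. The 200 bases before the RefSeq start site (GRCm38.p6) are shown for Ces1c and Ces2a, all but restricted to liver, and for 3 members used in both organs, Ces1e, Ces2c and Ces2e, written 5′ to 3′ on the strand of the gene. Capitals mark matches, on either strand, to any of 6 short motifs that were chosen after the sequences had been seen.
Ces1c, chr8:93131284-93131483, minus strand: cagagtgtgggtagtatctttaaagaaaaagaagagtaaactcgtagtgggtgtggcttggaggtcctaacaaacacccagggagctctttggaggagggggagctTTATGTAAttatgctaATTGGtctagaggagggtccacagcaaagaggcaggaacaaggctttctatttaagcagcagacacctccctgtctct
Ces1e, chr8:93229620-93229819, minus strand: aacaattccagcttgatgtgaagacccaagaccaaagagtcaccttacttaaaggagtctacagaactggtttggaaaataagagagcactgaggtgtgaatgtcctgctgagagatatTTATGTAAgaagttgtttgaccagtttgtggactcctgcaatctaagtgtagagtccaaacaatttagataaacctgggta
Ces2a, chr8:104733803-104734002, plus strand: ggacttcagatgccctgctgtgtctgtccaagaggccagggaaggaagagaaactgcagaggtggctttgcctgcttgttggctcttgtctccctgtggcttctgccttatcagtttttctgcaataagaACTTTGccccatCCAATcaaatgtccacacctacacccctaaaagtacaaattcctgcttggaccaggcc
Ces2c, chr8:104846868-104847067, plus strand: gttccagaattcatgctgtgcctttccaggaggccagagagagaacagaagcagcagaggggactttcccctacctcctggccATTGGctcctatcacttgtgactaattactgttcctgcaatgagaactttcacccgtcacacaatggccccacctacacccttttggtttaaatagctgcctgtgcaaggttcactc
Ces2e, chr8:104926060-104926259, plus strand: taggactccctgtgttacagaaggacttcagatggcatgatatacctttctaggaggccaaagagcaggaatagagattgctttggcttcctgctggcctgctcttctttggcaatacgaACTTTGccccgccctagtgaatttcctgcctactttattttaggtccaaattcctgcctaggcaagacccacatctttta

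The motifs searched were TTATGTAA (the D-box of the PAR-domain basic leucine zipper factors), CAAAGT (a half-site of the kind bound by HNF4), GTTAAT (an HNF1 half-site), TGANTCA (the AP-1 site), TATAAA (the TATA box) and CCAAT (the CCAAT box). No motif overlapped another. TTATGTAA was found at Ces1c, 94 to 87 bases before the start, and at Ces1e, 81 to 74 bases before it, and it occurred in 0.679% of 32851 promoter windows of that length. CAAAGT was found on the opposite strand at Ces2a and Ces2e, 70 to 65 and 80 to 75 bases before the start, and in 9.84% of all windows. CCAAT occurred at Ces1c, Ces1g, Ces2a and Ces2c and in 29.3% of all windows, and TATAAA at Ces1g and in 9.96%. The letters of the AP-1 site and of the HNF1 half-site were in none of the 7 windows that could be read, against 5.48% and 5.06% of all windows. The windows of Ces1b and Ces1c were alike at 107 of 112 aligned bases. That of Ces1b was taken before the upstream of its start sites, 93080017 and not 93079940. It ended in ttatgta, short of the last letter of TTATGTAA, and the bases after it were not searched for any motif. Sequences of Ces1d, Ces1f and Ces3a were not used here.

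Peaks at the start sites were called in different organs for different members. Over all 21000 genes with a curated protein-coding transcript, 65.2% to 68.1% had a peak within 1000 bases of a start site in a kidney library and 61.9% to 64.8% in a liver library. A peak within 1000 bases of the start site of Ces1b, Ces1c or Ces2a was called in 0 of 6 kidney libraries and in 3 of 3 young livers, and in 2, 2 and 1 of 3 old livers. Ces1d, Ces2c and Ces2e had such a peak in all 12 libraries. Within 500 bases, however, Ces2c had a peak in 1 of 3 young and 1 of 3 old livers, and Ces1d in 2 of 3 old livers. Ces1e had a peak within 1000 bases in 6 of 6 kidneys, 3 of 3 young livers and 1 of 3 old livers, Ces1g in 1 of 6 kidneys and 6 of 6 livers, and Ces1f in 1 of 6 kidneys, 3 of 3 young livers and 1 of 3 old livers. Ces3a, whose level was the second highest in young liver, had no peak in any of the 12 libraries. With peaks of -log10 q of at least 5 only, Ces1d kept its peak in 6 of 6 kidneys and 0 of 6 livers, although its transcript level was higher in liver, and Ces1e and Ces1f had none in 6 livers. In old liver that threshold left a peak for Ces2c in 1 and for Ces2e in 2 of 3 libraries and for no other member, while 49.8% to 54.1% of all genes had one in a liver library.

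**Figure D3:**
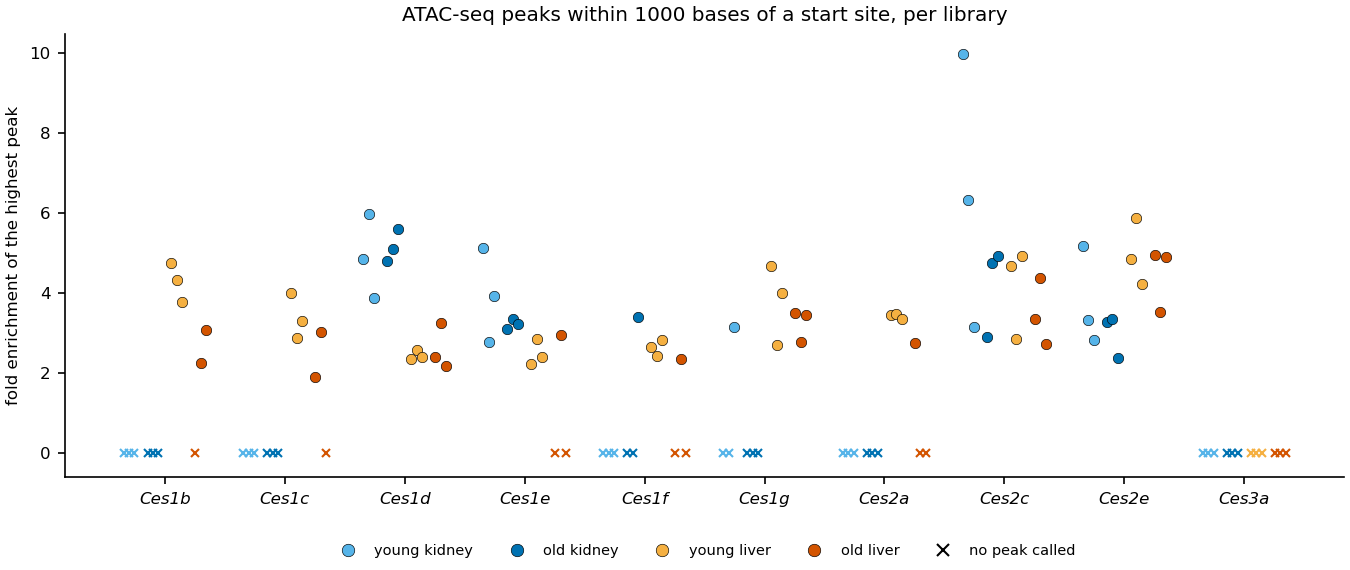
Fold enrichment of the highest ATAC-seq peak within 1000 bases of the start site of each member, for every library (points; crosses at 0 mark libraries with no peak called). The values of young and old libraries overlapped for each member with a peak in every library of a tissue.

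The median fold enrichment of all peaks in a library was 2.74 to 3.56. Of the family, Ces2c in young kidney held the highest value, 9.99 in 1 library, with 6.49 ± 3.42 (SD, n = 3) against 4.20 ± 1.12 (SD, n = 3) in old kidney (exact permutation p = 0.4). The kidney peaks at Ces2e reached 3.79 ± 1.23 in young and 3.01 ± 0.55 in old mice (exact permutation p = 0.5, SD over 3 libraries), and the liver peaks 5.0 ± 0.84 and 4.46 ± 0.81 (exact permutation p = 0.6). The heights could be compared between ages only where every library of a tissue had a peak, which was the case for Ces1d, Ces1e, Ces2c and Ces2e in kidney and Ces1d, Ces1g, Ces2c and Ces2e in liver. The two-sided exact permutation p of these 8 comparisons lay between 0.4 and 0.9, or 0.8 and 0.9 after Benjamini-Hochberg adjustment, and 3 against 3 libraries cannot go below 0.1. In liver, Ces1b, Ces1c, Ces1e, Ces1f and Ces2a, with a peak in every young library and not in every old one, are outside these tests. The summit of the highest peak was not at the same place in every library. Relative to the start it lay between -113 and -3 for Ces1b, -55 and 31 for Ces1f and -93 and 56 for Ces2a, but between -826 and -4 for Ces2e, -322 and 958 for Ces2c, -527 and 991 for Ces1d, -78 and 914 for Ces1e, -1045 and -57 for Ces1g and -608 and -38 for Ces1c. Heights compared between ages can therefore belong to different peaks. A peak called in some libraries and not in others can also be a matter of depth, which was not tested.

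The liver transcripts in old kidney replicate 2 included the liver members of the family. In that library Ces1c held 81.9 CPM (2779 reads), Ces2a 6.36 CPM (216 reads), Ces3a 4.98 CPM (169 reads) and Ces1b 1.21 CPM (41 reads). In the other 3 old kidneys Ces1c held 0.041 to 0.658 CPM, Ces2a had no read, and Ces1b and Ces3a were at most 0.039 CPM. Relative to the mean of old liver, the level of Ces1c in replicate 2 was 1.13%, that of Ces2a 1.62%, that of Ces1b 0.763% and that of Ces3a 0.667%, close to the 0.957% of the hepatocyte markers. By library totals alone the share of Ces1c was 2.66%.

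**Figure D4:**
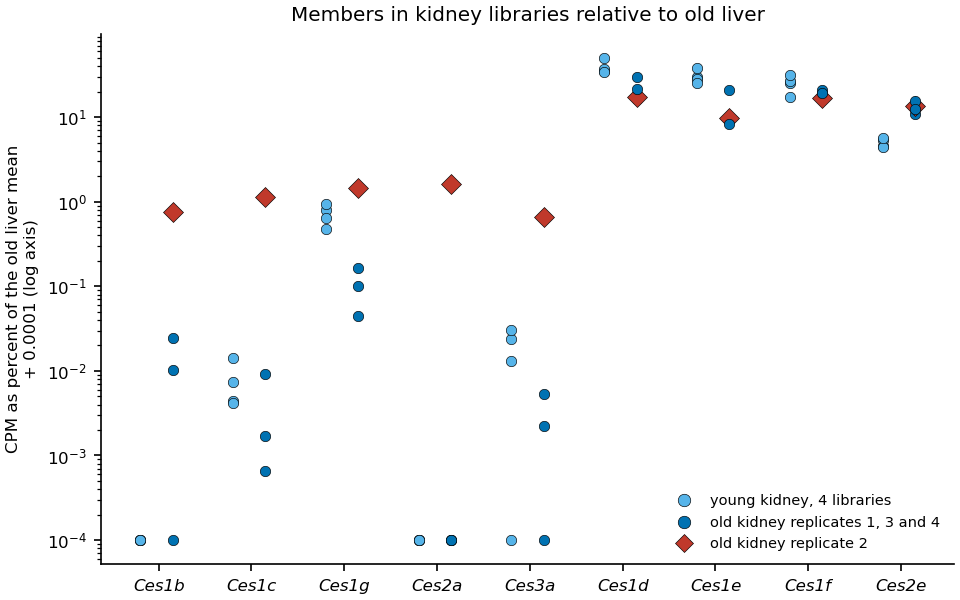
CPM of 9 members in each young and old kidney library as a percentage of the old liver mean, on a logarithmic axis with 0.0001 added. Old kidney replicate 2 (diamonds) held Ces1b, Ces1c, Ces1g, Ces2a and Ces3a at 0.667% to 1.62% of liver, above all other kidneys, and lay among the other old kidneys for Ces1d, Ces1e and Ces2e and just below them for Ces1f.

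To ask how the family changed in the ageing kidney, old and young kidneys were compared. Ces2e rose and Ces1e fell, and no other of the 7 members tested passed both thresholds. Of 14495 genes tested, 5.64% were called higher and 0.400% lower in old kidney. The study's text names Ces1d as decreased in aged kidneys and livers, and Ces1e as decreased in both expression and promoter accessibility. As far as these libraries were used for that, their direction here is not independent evidence. The fold enrichment of the kidney peaks at Ces1e was 3.95 ± 1.16 in young and 3.23 ± 0.13 in old mice (SD, n = 3 each, exact permutation p = 0.4).

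Ces2e held 14.4, 16.9, 14.1 and 17.7 CPM in the young kidneys and 34.3, 42.3, 49.1 and 39.4 CPM in the old kidneys. Every old kidney lay above every young kidney, as it did for 10.8% of all genes tested. The fitted increase was 2.73-fold, a log2 fold change of 1.45 (SE 0.141, 95% confidence interval 1.13 to 1.76, edgeR adjusted p = 0.000601). Without replicate 2 the log2 fold change was 1.42. In the kidneys of DMSO mice, aged 20 to 21 months, Ces2e held 14.3 to 19.8 CPM, and these values were not tested against the untreated groups.

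Ces1e held 71.2, 67.2, 60.6 and 89.4 CPM in the young kidneys and 22.5, 23.3, 50.04 and 19.7 CPM in the old kidneys. The groups did not overlap, and old kidney replicate 3 lay closest to the young kidneys. Ces1e fell by 1.28 on the log2 scale, 2.42-fold lower (SE 0.271, 95% confidence interval -1.88 to -0.67, edgeR adjusted p = 0.0152). Without old kidney replicate 4 the fold change was -1.14 and the adjusted p was 0.0518, and without replicate 2 the fold change was -1.20.

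Ces1d, the most abundant member in kidney, held 333, 351, 323 and 475 CPM in the young kidneys and 156, 162, 279 and 204 CPM in the old kidneys. Again the groups did not overlap, as was the case for 7.20% of all genes tested with the lower values in old kidney. The log2 fold change of Ces1d was -0.83 (SE 0.203, edgeR adjusted p = 0.0275), which passed the threshold on p, as 3.28% of all genes did with lower values in old kidney, and not that on fold change. Without old kidney replicate 3 it was -1.01 (adjusted p = 0.00845) and passed both, and without replicate 2 it was -0.76 (adjusted p = 0.0317).

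Ces2c held 50.3 to 102.7 CPM in young and 39.1 to 57.8 CPM in old kidneys, with a log2 fold change of -0.78 (SE 0.226, edgeR adjusted p = 0.0523). Without replicate 2 the fold change of Ces2c was -0.78 (adjusted p = 0.0447), past the threshold on p and not that on fold change. Ces1f held 77.2 to 138.6 CPM in young and 74.9 to 92.2 CPM in old kidneys, a log2 fold change of -0.36 (95% confidence interval -0.74 to 0.01, edgeR adjusted p = 0.18), and -0.33 (adjusted p = 0.21) without replicate 2. The ranges of both genes overlapped between the ages. The 10 members summed to 658 ± 110 CPM in young and 426 ± 77.0 CPM in old kidney (SD, n = 4 each), with no overlap between libraries, and the old mean was 418 CPM without replicate 2.

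For Ces1g the result turned on replicate 2. It held 2.66, 4.50, 3.57 and 5.26 CPM in the young kidneys and 0.247, 8.07, 0.930 and 0.560 CPM in the old kidneys, where the value of 8.07 CPM belongs to replicate 2. With all 8 libraries the log2 fold change was -0.61 (SE 0.872, edgeR adjusted p = 0.663). Without replicate 2 it was -2.73 (edgeR adjusted p = 0.00429), and 2.31% of 14519 genes were then called lower and 5.90% higher. Ces1c, with a log2 fold change of 5.39 (edgeR adjusted p = 0.125) over all libraries, had -1.01 (adjusted p = 0.396) without replicate 2, and Ces1b, Ces2a and Ces3a were too low in kidney to be tested.

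Markers of the cell types of the organ varied between the same libraries. The summed level of the proximal tubule markers was 21249 to 27727 CPM in the young kidneys and 22471, 12539, 23625 and 13243 CPM in old kidney replicates 1 to 4. The summed level of the adipocyte markers was 404 to 777 CPM in the young kidneys and 276, 144, 765 and 148 CPM in the old ones, with adipsin (Cfd) at 174 to 351 and 35.7 to 221 CPM. Cfd was not called (log2 fold change -1.31, edgeR adjusted p = 0.131), and the 1 adipocyte marker called of 8 was higher in old kidney (leptin, Lep, log2 fold change 2.67, adjusted p = 0.0379). Lep was also the only 1 of the 8 with a fold change above 0, and the median over the 8 was -0.78. Its mean level was low, 0.386 CPM in young and 2.44 CPM in old kidney. Adipocytes are known to express Ces1d and Ces1f, and the part of either cell type in the values of the family was not tested. Immune cell markers were higher in every old kidney, with a macrophage marker sum of 92.9 to 122.8 CPM in young and 321 to 593 CPM in old kidneys, and a B and plasma cell marker sum of 4.80 to 9.41 CPM in young and 279 to 405 CPM in old kidneys. Of 8 fibroblast markers all had a fold change above 0, and Lum (log2 1.57) and Thy1 (1.93) were called higher. Of 6 endothelial markers 3 had a fold change above 0. Stab2 was called lower (-1.07), and Eng was higher on the adjusted p alone (log2 fold change 0.52, edgeR adjusted p = 0.035). The part of these cells in the results was not tested either. Kap, an abundant tubule transcript, gave 8290.5 to 15327 CPM of this sum in the young and 4086 to 13185 CPM in the old kidneys. The other 11 tubule markers were summed after the values were seen. They gave 11131 to 13360 CPM in the young and 7400.4 to 10440.3 CPM in the old kidneys. Every old kidney then lay below every young one, as for Ces1d, for Ces1e and for 7.20% of all genes tested. The part of this difference in the values of Ces1d and Ces1e was not tested. Of the 12 markers 10 had a fold change below 0, and the lactate transporter Slc5a12 was called lower, at 485 ± 73.6 CPM in young and 225 ± 17.6 CPM in old kidney (SD, n = 4 each, log2 fold change -1.04, edgeR adjusted p = 0.00155).

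**Figure D5:**
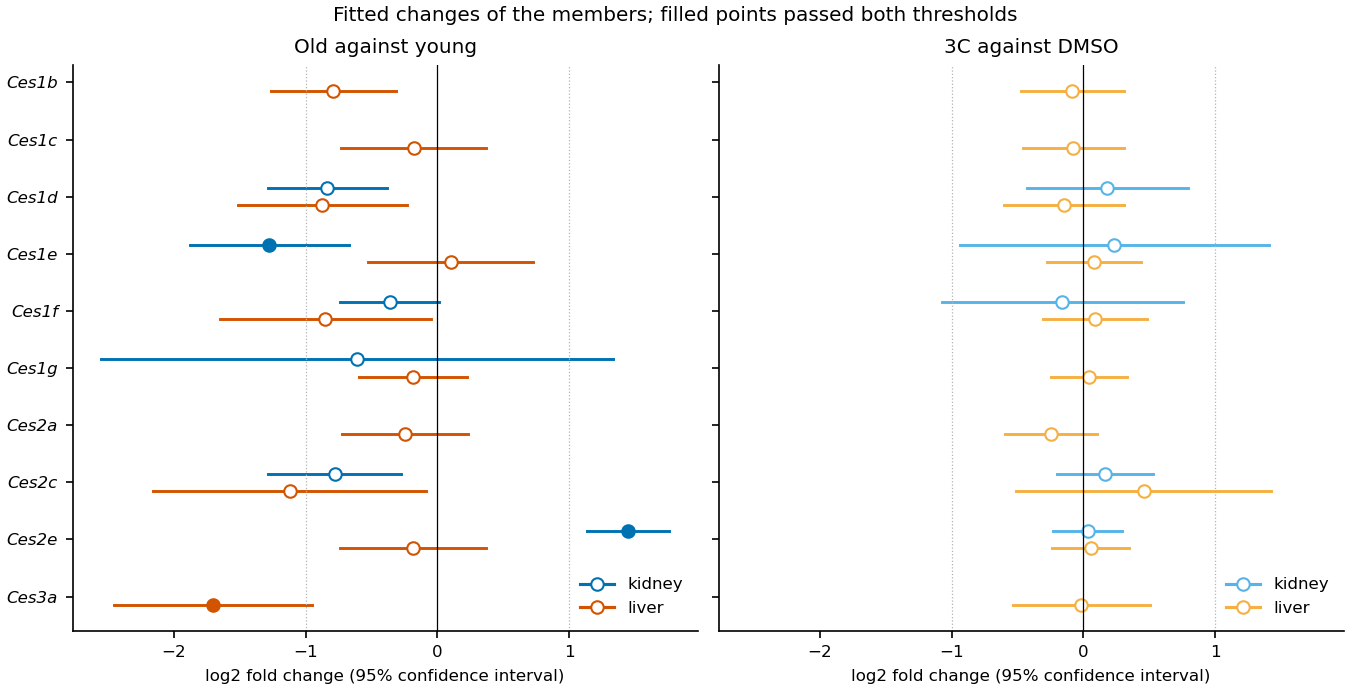
Fitted log2 fold change (points) with its 95% confidence interval (lines) for each member tested, old against young (left) and 3C against DMSO (right), in kidney and liver, with dotted lines at 2-fold. Filled points passed both thresholds (Ces1e and Ces2e in old kidney and Ces3a in old liver), and Ces1c in kidney is left out because its level rests on few reads or on 1 library.

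In old liver, by contrast with kidney, all 10 members could be tested, and Ces3a was the only member called. Of 12537 genes tested, 1.64% were called higher and 0.431% lower. Ces3a held 1888, 2369, 2823 and 2727 CPM in the young livers and 835, 335, 641 and 1173 CPM in the old livers. The lowest young liver lay above the highest old liver, as for 4.07% of all genes tested. Ces3a fell by 1.70 on the log2 scale, 3.25-fold lower (SE 0.342, 95% confidence interval -2.45 to -0.95, edgeR adjusted p = 0.0307). The call was sensitive to single libraries. When any 1 of young liver replicates 1, 2, 3 and 4 or old liver replicate 3 was left out, the log2 fold change stayed between -1.80 and -1.61 and the adjusted p between 0.0705 and 0.101.

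The neighbour Ces3b, not among the 10 members, shares reads with Ces3a. It held 680 to 1094 CPM in the young livers and 126 to 313 CPM in the old livers, a log2 fold change of -2.12 (SE 0.297, edgeR adjusted p = 0.0065). In livers of DMSO mice Ces3a held 502, 537, 743 and 1010 CPM and Ces3b 165 to 282 CPM, values that were not tested against the untreated livers.

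The other liver members did not pass the threshold on the adjusted p. Ces1b held 260, 254, 264 and 332 CPM in the young livers and 228, 140, 135 and 131 CPM in the old livers, without overlap, and its log2 fold change was -0.79 (SE 0.216, edgeR adjusted p = 0.0915). Without old liver replicate 1, the old library with the highest Ces1b, it was -1.02 (adjusted p = 0.00839) and passed both thresholds. Ces1d held 1312 to 2415 CPM in young and 525 to 1262 CPM in old livers, also without overlap, with a log2 fold change of -0.87 (SE 0.292, edgeR adjusted p = 0.167). Ces1f and Ces2c had log2 fold changes of -0.85 (SE 0.364) and -1.12 (SE 0.469), and edgeR adjusted p values of 0.305 and 0.293. Ces1f in old liver ranged from 233 to 799 CPM, wider than the 709 to 980 CPM of young liver.

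Ces1c, Ces1e, Ces1g, Ces2a and Ces2e had log2 fold changes between -0.24 and 0.10 in old liver. For Ces1c the 95% confidence interval was -0.73 to 0.37, for Ces1e -0.53 to 0.73, for Ces1g -0.60 to 0.22, for Ces2a -0.72 to 0.23 and for Ces2e -0.74 to 0.37. Changes of 2-fold in either direction lie outside each of these intervals. Old liver replicate 3 held the lowest level of 6 members, with Ces2e at 162 CPM against 334 to 380 CPM and Ces1e at 115 CPM against 244 to 309 CPM in the other old livers. In old liver the macrophage marker sum was 1139 to 2209 CPM against 880 to 1380 CPM in young liver, and the B and plasma cell marker sum 29.1 to 138.5 CPM against 6.77 to 9.06 CPM, and their part in the results was not tested. Old liver replicate 1 held Ces1c at 10274 CPM against 6175 to 6363 CPM in the other old livers.

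To test whether ageing acted on the family differently in the 2 organs, the difference between the age effects was fitted over all 16 untreated libraries. Ces2e was the only member called, at an adjusted p under 0.05, where 0.885% of 15036 genes had a larger effect in liver and 0.865% a smaller one. The age effect on Ces2e was lower in liver than in kidney by 1.58 on the log2 scale (fitted difference -1.58, SE 0.301, edgeR adjusted p = 0.0144). For Ces1e, which held 115 to 309 CPM in old and 169 to 289 CPM in young liver, the difference was 1.41 (SE 0.433, edgeR adjusted p = 0.122). For Ces1d it was 0.00 (95% confidence interval -0.80 to 0.80), for Ces1f -0.44 (-1.37 to 0.49), for Ces2c -0.29 (-1.47 to 0.90) and for Ces1g 0.50 (-1.5 to 2.5). For Ces1b, Ces1c, Ces2a and Ces3a the fitted differences lay between -8.35 and -4.90 (edgeR adjusted p between 0.205 and 0.289), with reads of old kidney replicate 2 above those of the other kidneys. Without that library Ces2a had no read in any of the untreated kidneys and Ces1b and Ces3a had at most 6, and no difference is given for them, while the difference for Ces1c was 0.85. The difference for Ces2e was -1.62 (edgeR adjusted p = 0.0219), and those for Ces1e, Ces1d, Ces1f and Ces2c were 1.27 (adjusted p = 0.204), -0.13, -0.54 and -0.34. The difference for Ces1e passed the threshold without old kidney replicate 3 (1.75, edgeR adjusted p = 0.0286) and without old liver replicate 3 (1.64, adjusted p = 0.0396). Without old kidney replicate 2 the difference for Ces1g was 2.53 (adjusted p = 0.00617), where 0.456% of 15147 genes had a larger effect in liver and 0.601% a smaller one.

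Other genes of lipid and drug hydrolysis were followed through lists chosen beside the family. Of the other carboxylesterases, 3 could be tested in kidney, of which Ces2h was called higher (log2 fold change 2.42, 0.182 to 0.683 CPM in young and 1.56 to 3.10 CPM in old kidney) and Ces2b lower (-1.86, 8.95 to 45.9 CPM in young and 5.63 to 7.69 CPM in old kidney). Of 15 lipases and lipase cofactors, hepatic lipase (Lipc) was called higher and lipoprotein lipase (Lpl) lower in old kidney, while in old liver Lpl was the only gene past both thresholds, and higher. On the adjusted p alone, which 8.09% of all genes passed as higher and 3.28% as lower in old kidney and 0.550% as lower in old liver, Daglb was higher and Pnpla8 lower in old kidney, and the cholesterol ester hydrolase Nceh1 was lower in old liver (log2 fold change -0.94, edgeR adjusted p = 0.0179). Lipc held 0.66 to 5.95 CPM in old kidney, with its highest value in replicate 2, and its log2 fold change was 3.71 with and 2.89 without that library. Without it, Ces2h (2.47), Ces2b (-1.80) and Lpl (-1.06) also remained past both thresholds. Of 13 genes of triacylglycerol synthesis and lipoprotein assembly, 0 were called with age in either organ, and of the other esterases and epoxide hydrolases 0 of 14 tested in kidney and 0 of 13 tested in liver. On the adjusted p alone, 2 of the 13 genes were lower in old kidney (Gpam and Lpin1) and 1 of the 14 esterases and hydrolases was higher (Ephx1). Without replicate 2 Ephx1 passed both thresholds (log2 fold change 1.02), as 5.90% of all genes did in that direction, and 0 of the 13 genes did.

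The receptors known to regulate the family and their targets were examined in the same way. None of the 14 nuclear receptors and liver or kidney transcription factors tested in kidney, and none of the 15 tested in liver, passed both thresholds. On the adjusted p alone, as for Ces1d, 3 were lower in old kidney, the factor Cebpa (log2 fold change -0.63), the fatty acid receptor Ppara (-0.78) and the bile acid receptor Nr1h4 (-0.46), and Nr1h4 was lower in old liver (-0.84, edgeR adjusted p = 0.0369). Without replicate 2 the kidney values were -0.67, -0.94 and -0.43, and again 0 of 14 passed both thresholds. Of 11 known target genes of the xenobiotic receptors CAR and PXR, 6 could be tested in kidney, where the aldehyde dehydrogenase Aldh1a1 was called higher (log2 fold change 1.96, edgeR adjusted p = 0.00114, and 1.81 without replicate 2, where Ugt1a1 was also called, and lower, with an adjusted p of 0.0192). All 11 were tested in liver, where the cytochrome P450 Cyp3a11 was called lower (log2 fold change -3.52, SE 0.619, edgeR adjusted p = 0.0179).

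To ask whether the agent 3C altered the family, treated and DMSO libraries were compared within each tissue. No member was called in kidney, liver or fibroblasts. In kidney, 0 of 14974 genes and in liver 0 of 13042 genes were called in either direction, with 1719 and 421 genes at an unadjusted p under 0.05, and DESeq2 called 5 genes lower in kidney and 2 higher in liver, none of them a member. Ces1d held 150.9, 89.2, 83.6 and 162 CPM in DMSO and 180, 110, 140 and 131 CPM in 3C kidney, a log2 difference of 0.18 (95% confidence interval -0.43 to 0.79). Ces2e in kidney held 14.3 to 19.8 CPM with DMSO and 15.4 to 21.4 CPM with 3C, with an interval of -0.23 to 0.29, the narrowest of the family in that organ. The interval of Ces1e in kidney, -0.94 to 1.41, was wide enough to hold a change of 2-fold. Ces1f held 36.6 to 74.3 CPM with DMSO and 28.6 to 79.3 CPM with 3C (log2 difference -0.16, 95% confidence interval -1.08 to 0.76), and Ces2c 17.4 to 25.4 and 19.9 to 33.8 CPM (0.17, -0.20 to 0.53). Ces1c held at most 2.57 CPM in these kidneys, with a difference of -1.17 (-2.64 to 0.30). Ces1b, Ces1g, Ces2a and Ces3a, each under 1 CPM in every one of these kidneys, were not tested.

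In liver, the intervals of the 3C effect lay within 2-fold in either direction for 9 of the 10 members. Ces1c held 4788 to 7194 CPM with DMSO and 4385 to 6609 CPM with 3C, a log2 difference of -0.08 (95% confidence interval -0.46 to 0.31). Ces3a held 502 to 1010 CPM with DMSO and 523 to 946 CPM with 3C, a difference of -0.02 (95% confidence interval -0.54 to 0.51). Ces2c, the least abundant member in liver, had the widest interval, -0.51 to 1.43, around a difference of 0.46. Ces2a held 312 to 508 CPM with DMSO and 319 to 395 CPM with 3C (-0.25, 95% confidence interval -0.60 to 0.10). The differences of Ces1b, Ces1d, Ces1e, Ces1f, Ces1g and Ces2e lay between -0.15 and 0.09, and the outermost bounds of their intervals were -0.60 and 0.48. The difference between the 3C effects in liver and kidney passed the threshold for 0 of 15526 genes, with 538 at an unadjusted p under 0.05, and DESeq2 also called 0.

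In skin fibroblasts 1 of the 10 members, Ces2e, could be tested. Of the 2 other carboxylesterases tested, Ces1a held 0.43, 0.32 and 0.58 CPM with DMSO and 0.64, 1.01 and 0.53 CPM with 3C, and was not called (log2 difference 0.77, edgeR adjusted p = 0.362). Ces2g held 3.21, 3.53 and 4.03 CPM with DMSO and 3.87, 4.09 and 4.30 CPM with 3C, and was not called (log2 difference 0.20, edgeR adjusted p = 0.609). Ces2e held 2.81, 2.62 and 2.11 CPM with DMSO and 2.11, 2.90 and 4.31 CPM with 3C, from 44 to 89 reads per library. The log2 difference was 0.30 (95% confidence interval -0.33 to 0.93, edgeR adjusted p = 0.599), where 1.20% of 13449 genes were called higher and 0.632% lower. Ces1c and Ces1d had 1 read each in 1 of the 6 libraries, and the other 7 members had none.

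The libraries of an organ also differed among themselves, and pairs of members varied together to different degrees. Over the members above 1 CPM on average, the correlation of a pair ranged from -0.46 to 0.88 in liver (median 0.34, 8 of 45 pairs below 0). In kidney it ranged from 0.06 to 0.92 over the 15 pairs without Ces1c (median 0.34), and the 4 pairs below 0 all held Ces1c, which passed 1 CPM on average through old kidney replicate 2. With each group centred on its mean, the log2 levels of Ces1d and Ces1e had a Pearson correlation of 0.92 over the 16 kidney libraries and of 0.87 over the 16 liver libraries. Ces1b and Ces1c, the pair with the most similar transcripts, had 0.88 in liver. The genes most like Ces1d in kidney were the acetyltransferase Nat8 (0.91) and the quinone reductase Nqo1 (0.91), and that most like Ces1e was the methyltransferase Inmt (0.92). In liver Ces1d was most like the peroxisomal thiolase Acaa1b (0.92), Ces1f was most like the cytochrome P450 Cyp2b9 (0.89) and Ces2c was most like the glutathione transferase Gstt3 (0.92). In kidney Ces1c was most like Alb (0.98), and old kidney replicate 2 held the highest level of both. These correlations are descriptions over libraries that share depth and tissue composition, chosen as the highest among all genes, and carry no test.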

How the data were processed

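The authors trimmed the reads with Trimmomatic 0.39, used HISAT2 2.2.1 for the alignment of RNA reads to mm10, and obtained reads per gene from HTSeq 0.12.4 without regard to strand. The deposited counts are raw reads per gene. For ATAC-seq, aligned with Bowtie2 2.3.5.1, the deposited MACS2 peaks of each library give a fold enrichment (a ratio) and -log10 p and q values.

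Counts were fitted with edgeR 4.0.16 (robust quasi-likelihood test, TMM, filterByExpr with a minimum count of 10, Benjamini-Hochberg adjustment over all genes tested), within the groups compared and without a replicate block. DESeq2 1.42.0 and the other alternatives are given with the closing results. Calls needed an adjusted p under 0.05 and a change above 2-fold, interactions the adjusted p alone. Group labels came from GEO. The p-values measure the spread between samples of a group. No 2 libraries were alike within counting noise (54 pairs, smallest chi-square per degree of freedom 8.12). The fits were tested on simulated data.

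Same-numbered young kidney and young liver libraries deviated together (correlations of 0.179, 0.349, 0.16 and 0.59). Young liver replicate 2 with young kidney replicate 1 gave 0.363, so these values do not settle whether the numbers pair the samples. The 3C kidney and 3C liver libraries also deviated together by number (0.204, 0.247, 0.123 and 0.136). The DMSO (0.126, 0.164, 0.031 and 0.018) and old pairs (0.346, 0.35, -0.368 and -0.039) did not throughout. All 10 members are described in every comparison, alone or by their range, and from other lists at most 2 called genes with the smallest p. Genes past the adjusted p alone, Slc5a12, Ces2g, the tubule sum without Kap and the pairs without Ces1c were added after their values were seen. Members and lists were chosen with earlier results of these data known. Promoter sequences are from RefSeq (GRCm38.p6), 7 of 10 members matched.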

Additional observations from a re-analysis of the deposited data

Results flagged for a closer look

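Of 61 groups of 4 libraries in which a member reached 1 CPM in 2 or more libraries, 5 held a library whose gap to the nearest other exceeded Dixon's 95% critical value relative to the group's range, and chance flags about 1 in 20 such groups. A further 7 groups reached 1 CPM in 1 library only, of which 5 were flagged. For these, all in old kidney, the CPM minimum itself picked the high library, so that their number says nothing. In old kidney, replicate 2 was the outlying library for Ces1b (1.21 CPM, others at most 0.039), Ces1c (81.9 CPM, others 0.041 to 0.658), Ces1g (8.07 CPM, others 0.247 to 0.93), Ces2a (6.36 CPM, others 0) and Ces3a (4.98 CPM, others at most 0.039). For Ces1e in old kidney, replicate 3 lay apart at 50.04 CPM, with the others at 19.7 to 23.3 CPM.

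In old liver, replicate 1 lay apart for Ces1b (227.6 CPM, others 131 to 140 CPM) and for Ces1c (10274 CPM, others 6175 to 6363 CPM). In young liver, replicate 4 lay apart for Ces1b (332.0 CPM, others 254 to 264 CPM). In liver of 3C mice, replicate 2 lay apart for Ces1e (183.8 CPM, others 254 to 261 CPM).

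The age effect differed between the organs for Ces2e, by a test of the difference itself. Its log2 age effect was lower in liver than in kidney, with a fitted difference of -1.58 (edgeR adjusted p = 0.0144), and the adjusted p was 0.0436 with the replicate number as a block.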

How the results depend on the processing

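Ces2e higher in old kidney and the 9 members lower in young kidney than in young liver were called under every alternative. The number of members called lower in old kidney, 1 (Ces1e), was 2 on the adjusted p alone, which adds Ces1d, and ranged from 0 to 2 when 1 library was left out. In old liver the 1 member called lower became 0 to 2, and the 1 higher in young kidney than in young liver became 0 to 1. Of age effects that differ between the organs, 0 members were higher in liver and 1 lower, against 1 and 2 with DESeq2 (Ces1e, and Ces2a with reads in 1 old kidney only) and 0 to 1 higher on leaving out 1 library. With the replicate number as a block, Ces2e in old kidney had 1.44 (adjusted p = 0.00338), and the block changed no call of a member, nor the 0 genes whose 3C effect differed between the organs.

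Without 1 library the log2 age effect ran from -1.01 to 5.91 for Ces1c in kidney, from -0.061 to 0.32 for Ces1e in liver and from -0.30 to 0.028 for Ces2e in liver. The 3C effect in kidney ran from -0.049 to 0.56 (Ces1e), -0.51 to 0.07 (Ces1f) and -0.056 to 0.12 (Ces2e), in fibroblasts from -0.008 to 0.52 (Ces2e), and in liver from -0.23 to 0.043 (Ces1b), -0.19 to 0.052 (Ces1c), -0.29 to 0.019 (Ces1d), -0.044 to 0.19 (Ces1e), -0.027 to 0.30 (Ces1f), -0.003 to 0.12 (Ces1g), -0.058 to 0.12 (Ces2e) and -0.21 to 0.21 (Ces3a, 0 with the replicate block). These were not called in any setting. The peak enrichment of Ces1d, old minus young, ran from -0.25 to 0.80 in kidney and from -0.17 to 0.37 in liver. In kidney that of Ces2c ran from -3.96 to -0.54, Ces2e from -1.25 to -0.08 and Ces1e from -1.3 to -0.14. In liver that of Ces2c ran from -1.33 to -0.28, Ces1g from -1.1 to -0.11 and Ces2e from -0.92 to -0.07.

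By library totals alone the members summed to 789 CPM in young kidney, 547 in old kidney, 351 in DMSO kidney, 367 in 3C kidney, 8739 in young liver, 6649 in old liver, 7077 in DMSO liver, 6638 in 3C liver and 3.25 in DMSO fibroblasts. With peaks of -log10 q of at least 5 only, 33 of 72 promoter peaks were left. Depth limits Ces1b, Ces1c, Ces2a and Ces3a in kidney.

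Over all genes, those called lower in old kidney numbered 58, and 105 with DESeq2, 476 on the adjusted p alone and 32 to 335 on leaving out 1 library (32 and 335 on omitting old kidney replicates 4 and 2, 35 and 114 on omitting young kidney replicates 2 and 4). In old liver 206 were higher and 54 lower, against 483 and 112 with DESeq2 and 91 higher with the block. On leaving out 1 library they ran from 45 to 336 and from 27 to 76, from the fewest without young liver replicate 3 to the most without old liver replicate 1. Age effects that differed between organs numbered 133 and 130, against 339 and 406 with DESeq2 and 68 and 76 with the block, and from 49 and 69 (without young kidney replicate 2) to 264 and 209 (without old liver replicate 1) on leaving out 1 library. In fibroblasts 162 and 85 became 324 and 242 on the adjusted p alone and 78 and 40 without DMSO replicate 3 (112 and 49 without 3C replicate 2), and in young kidney against young liver 2368 lower became 4237.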
